A study of Homo sapiens with 4 samples.

Results

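The interferon regulatory factor (IRF) genes measured here were 8 of the 19970 protein-coding genes of GENCODE on GRCh38: IRF1, IRF2, IRF3, IRF4, IRF5, IRF7, IRF8 and IRF9. Their members were the listed peaks of open chromatin that overlapped the body of one of these genes or the 10 kb upstream of it. The rule used gene positions and no measured value. It held 23 of the 59629 peaks in WT, 26 of 67470 in WT-IFN-γ, 23 of 63203 in FLI1-KO and 23 of 59923 in FLI1-KO-IFN-γ. Merged over the 4 lists wherever peaks overlapped by at least 1 bp, they made 31 of 93211 regions.

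The assay was ATAC-seq, which reads accessible DNA through the cuts of a transposase, in HK1, an established human nasopharyngeal carcinoma line. Unedited cells (WT) and FLI1 knockout cells (made with sgFLI1, here FLI1-KO) were kept as controls or given interferon-γ (IFN-γ) for a day. FLI1 is a transcription factor of the ETS family. The guide sequence behind these libraries, and whether the knockout was 1 clone or a pool, are not given in the sources used here, and neither is the dose of IFN-γ. Each of the 4 groups held 1 library, so the variation among replicates is unknown and no test was run. All intervals are 95% and cover counting error only.

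IRFs are transcription factors with a shared DNA-binding domain that reads GAAA repeats. IRF1 is a classical early target gene of IFN-γ, and IRF9 is the DNA-binding part of the complex ISGF3. IRF3, IRF5 and IRF7 are switched on by kinases downstream of nucleic acid sensors and drive interferon genes, IRF2 competes with IRF1 for its sites, and IRF4 and IRF8 are known mainly from lymphoid and myeloid cells.

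Depth and identity were read from the lists. The summit pileup, the number of tags over the highest point of a peak, was recovered from the fold and −log10 p values of each peak, and levels were divided by the tag density of the library, which was 8.04 tags per kb in WT, 8.84 in WT-IFN-γ, 6.93 in FLI1-KO and 6.86 in FLI1-KO-IFN-γ. A region was called higher or lower when the ratio of scaled pileups was at least 1.5 or at most its inverse, with an interval that left out 1. Each pileup was taken at the highest summit of a library in the region, so a ratio can set different positions against each other. The FLI1 promoter had a peak of 12 tags in WT and 22 tags in WT-IFN-γ and none within 1 kb in either FLI1-KO library, although a peak list does not show whether a coding sequence was cut. The lowest pileup listed in WT was 8 tags, and no listing limit was taken for this promoter. Over the gene and 10 kb upstream, WT, WT-IFN-γ, FLI1-KO and FLI1-KO-IFN-γ listed 4, 5, 5 and 4 peaks. The highest of these held 21, 33, 31 and 25 tags in that order. Of 8 epithelial markers, EPCAM, KRT8, KRT18 and SFN had a promoter peak in all 4 libraries and KRT5, KRT14, TP63 and CDH1 in none. These markers do not establish a squamous identity, and starts other than the canonical one were not read for promoter peaks. Of 10 lymphoid and myeloid markers, 9 had none and CD14 had one in all 4, with 14 to 32 tags.

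The sequences that bear on the results are shown first. The IRF1 promoter is a RefSeq promoter window of GRCh38.p14 and the others were read from the GRCh38 genome, in lower case, with 2 kinds of letters in capitals. These are GAAANNGAA, a short form of the element that IRFs bind, and TTCNNNGAA, the GAS element found at genes that respond to IFN-γ, both searched on either strand. A match is a description of letters and not a bound site, and the 2 patterns can overlap each other. Of the 35116 RefSeq promoter windows of GRCh38 (250 bases before to 50 after a start), 8.11% held the IRF letters and 7.66% the GAS letters. Among the 9 such windows of member genes, 1 at IRF5 held the IRF letters and 2, at IRF1 and IRF9, the GAS letters. Those at IRF4 and IRF8 held neither. Of the windows of 100 bp either side of a summit in WT-IFN-γ, 9.09% held the IRF letters and 6.89% the GAS letters. In the other lists these shares were 5.47% to 5.94% and 5.57% to 6.03%. The promoter of IRF1 (chr5:132490774-132491023, minus strand) is shown because IRF1 is the family member that IFN-γ is best known to induce, and its GAS letters lie at chr5:132490889-132490897, under the promoter peak.
IRF1 promoter: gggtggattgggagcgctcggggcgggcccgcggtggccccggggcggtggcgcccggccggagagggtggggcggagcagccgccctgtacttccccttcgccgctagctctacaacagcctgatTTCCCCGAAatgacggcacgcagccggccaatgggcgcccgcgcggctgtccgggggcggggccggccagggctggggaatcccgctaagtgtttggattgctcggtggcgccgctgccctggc
The following pair are the summit windows of regions listed only in WT-IFN-γ, 1 in an exon of the antisense gene IRF1-AS1 beyond the end of the IRF1 canonical transcript (chr5:132464349-132464549, plus strand) and 1 upstream of IRF8 (chr16:85888936-85889136, plus strand). The first holds GAAAATGAA once on each strand, and the second holds it once.
IRF1 downstream region: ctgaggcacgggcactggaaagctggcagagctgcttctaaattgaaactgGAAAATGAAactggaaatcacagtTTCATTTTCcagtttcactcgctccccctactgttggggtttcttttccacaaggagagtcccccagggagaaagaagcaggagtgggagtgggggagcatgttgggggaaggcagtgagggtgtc
IRF8 upstream region: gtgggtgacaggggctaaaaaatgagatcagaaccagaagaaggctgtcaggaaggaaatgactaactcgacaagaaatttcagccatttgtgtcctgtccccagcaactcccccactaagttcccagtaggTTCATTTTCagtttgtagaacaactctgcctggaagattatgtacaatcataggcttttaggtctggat
The promoter of IRF2 (chr4:184474659-184474859, plus strand) is shown as the 1 region listed in all 4 libraries with the IRF letters, and it also holds GAS letters.
IRF2 promoter: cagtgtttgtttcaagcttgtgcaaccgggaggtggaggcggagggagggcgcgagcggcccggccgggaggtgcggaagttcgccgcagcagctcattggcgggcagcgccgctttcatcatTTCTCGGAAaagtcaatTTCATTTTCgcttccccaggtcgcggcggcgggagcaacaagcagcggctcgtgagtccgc
Short stretches of the IRF7 promoter (chr11:615989-616013) and the IRF9 promoter (chr14:24161194-24161218), both on the plus strand, hold GAS letters as well.
IRF7 promoter site: gcgggagtTTCCGGGAAgggcgcgc
IRF9 promoter site: cacgtgatTTCTGGGAAaaggccct

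Counted over the family, the IRF letters stood in 5 of the 31 summit windows and the GAS letters in 6. Each of these windows was centred on the summit of the library with the highest level, which was often not WT-IFN-γ. Shares over WT-IFN-γ summits are therefore not taken in quite the same way. The AP1 letters TGANTCA stood in 6 of 31, and in 23.5% of all WT-IFN-γ summit windows. The ETS letters CCGGAAGT, a form of the core that FLI1-type factors bind, were found in 0 of 31, and in 1.28% of all WT-IFN-γ summit windows. Of the 5 regions listed in WT-IFN-γ and not in WT, 3 held the IRF letters (1 each at IRF1, IRF4 and IRF8), against 17.0% of all 16838 regions of that kind. The IRF8 summit among them lies just outside the 10 kb upstream of the gene. Of the 19 listed in all 4 libraries, 1 held the IRF letters, 5 the GAS letters and 5 the AP1 letters. The shares over all regions listed in all 4 libraries were not taken, so it is not known whether these counts are usual. These counts are small and were chosen with the regions known, so they are given as a description.

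A promoter peak, meaning a summit within 1 kb of the canonical transcription start site (TSS), was listed in all 4 libraries at IRF1, IRF2, IRF5, IRF7 and IRF9, in WT and FLI1-KO at IRF3, and in none at IRF4 and IRF8. In each library 58.8% to 60.3% of all protein-coding genes had one. By pileup over tag density the WT order was IRF1 (13.9), IRF3 (13.1), IRF9 (10.7), IRF7 (9.08), IRF2 (7.46) and IRF5 (3.11). Neighbours in this order overlapped in their counting intervals except IRF2 and IRF5, and IRF5 stood apart from IRF2 in the other 3 libraries too. Under IFN-γ IRF1 stood above IRF9 without overlap in both genotypes, with 172 tags (147 to 200) against 103 tags (84.1 to 125) in WT-IFN-γ and 122 tags (101 to 146) against 81 tags (64.3 to 101) in FLI1-KO-IFN-γ. The IRF3 peak of these libraries, which covers its TSS but has its summit in exon 2, held 134 tags (112 to 159) and 83 tags (66.1 to 103), and both intervals overlapped those of IRF1.

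**Figure D1:**
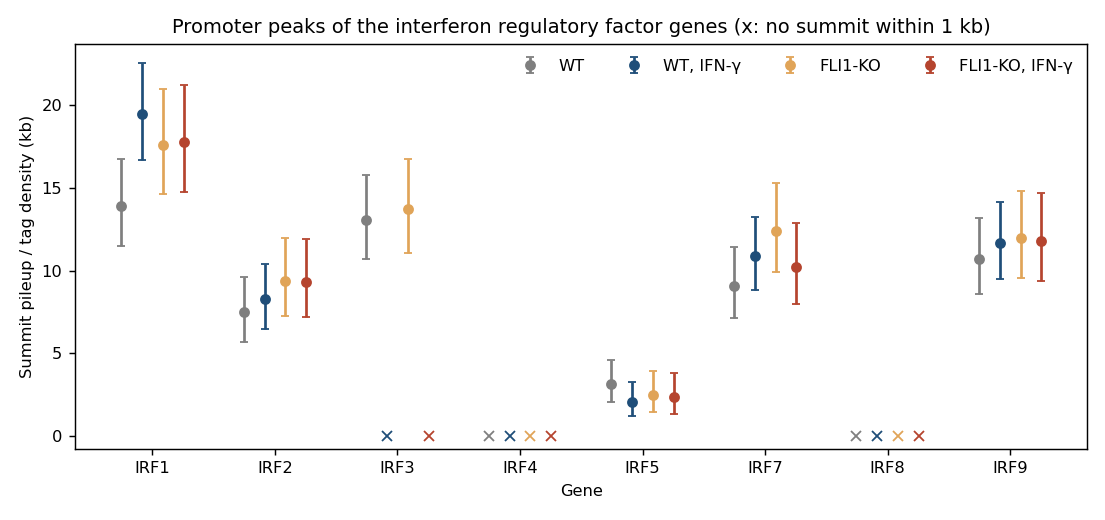
Promoter peaks of the 8 genes (x axis) in the 4 libraries (colours), as summit pileup divided by tag density on the y axis in kb; points are values, bars the 95% counting interval, and crosses mark a library with no summit within 1 kb. Among the points IRF1 stands highest and IRF5 lowest in each library, and IRF4 and IRF8 have none.

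Base composition, which the rule did not use, did not follow this order. Within 250 bp of the TSS the ratio of observed to expected CpG was 0.757 at IRF4 and 0.922 at IRF8, where no library listed a promoter peak. Of the 13673 protein-coding genes with a CpG ratio of at least 0.6, 18.7% had none in any library. At IRF9 the CpG ratio was 0.219 and a promoter peak was listed in all 4 libraries, as at 14.3% of the 6297 genes below 0.6. The remaining 5 genes had CpG ratios of 0.727 to 0.964.

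Across the family IFN-γ was accompanied by few changes in which regions were listed. In WT cells, 5 of the 26 member regions in WT-IFN-γ were not listed in WT, where the share over all regions was 25.2%, and 2 of the 23 in WT were not listed in WT-IFN-γ (15.8% over all regions). Of the 21 regions listed in both, 1 was called higher with IFN-γ, beside 3.44% of all regions, and 0 were called lower, beside 2.43%. In FLI1-KO cells, 3 of 23 regions were listed with IFN-γ alone (17.8% over all regions) and 2 of 22 without it alone (22.1%). Of the 20 in both, 0 were called higher (0.29% over all regions) and 0 lower (2%). These shares lay near or below the background, so the counts set the IRF genes apart from other genes in neither genotype. Over regions listed in both libraries, the median ratio of the members was 1.12 in WT, beside 0.953 over all regions, and 0.952 in FLI1-KO, beside 0.910.

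IRF1, the classical early IFN-γ target, held 11 of the 31 regions, the most of the 8 genes, over a window of 78.3 kb (gene body chr5:132440440-132508719, minus strand). The annotated body runs well beyond the canonical transcript at both ends. It overlaps the lncRNA IRF1-AS1 and a further protein-coding gene, both on the plus strand, so a peak there need not belong to IRF1. Its promoter peak, whose summit lay 140 bp upstream of the TSS in WT-IFN-γ, held 112 tags in WT, 172 with IFN-γ, 122 in FLI1-KO and 122 in FLI1-KO-IFN-γ. The IFN-γ ratio was 1.40 (1.10 to 1.79) in WT, short of the 1.5 needed for a call, and 1.01 (0.780 to 1.31) in FLI1-KO. The local background was 17.4 tags in WT and 33.8 in WT-IFN-γ, against 16.9 and 20.2 in FLI1-KO and FLI1-KO-IFN-γ. With the background subtracted the WT ratio was 1.33. The WT ratio divided by the FLI1-KO ratio was 1.38 (0.979 to 1.96), an interval that takes in 1.

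The strongest member peak listed in WT-IFN-γ and not in WT lay at the 3′ end of IRF1. The region chr5:132480645-132482125, with its summit 9039 bp from the TSS in the untranslated part of exon 10, was listed in both IFN-γ libraries and in neither control. It held 150 tags (127 to 176) in WT-IFN-γ and 34 tags (23.6 to 47.5) in FLI1-KO-IFN-γ, with its summit at 9439 bp, just beyond the end of the canonical transcript. The FLI1-KO-IFN-γ level was 0.292 of the WT-IFN-γ level (0.195 to 0.426), the lowest ratio called among the members. At the depth of WT the same signal would have been 137 tags, and 78 would have sufficed for a listing had the background scaled with depth. The local background was 58.3 tags in WT-IFN-γ and 11.9 in FLI1-KO-IFN-γ, so the fold over background was 2.55 and 2.71. Neither the IRF letters nor the GAS letters lay within 100 bp of this summit.

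A further IRF1 region, chr5:132464146-132464632, whose window with the paired GAAAATGAA letters is printed above, was listed in WT-IFN-γ alone. It held 55 tags (41.4 to 71.6) with its summit 26324 bp past the TSS, and the background there was 17.2 tags. The same signal would have come to 50.1 tags at the depth of WT and 42.7 at that of FLI1-KO-IFN-γ, where 30 and 26 tags would have been listed. The second strong IRF1 region in all 4 libraries lay near the start of an upstream IRF1 transcript, 5915 bp before the canonical TSS. It held 132 tags in WT, 151 with IFN-γ, 142 in FLI1-KO and 134 in FLI1-KO-IFN-γ, and the IFN-γ ratios were 1.04 in WT and 0.954 in FLI1-KO. FLI1-KO over WT was 1.25 (0.978 to 1.59), and all 4 intervals took in 1. Its summit window held GAS letters too.

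The other IRF1 regions were weaker. Between 15 and 21 kb past the TSS, a region 15231 bp away was listed in WT alone with 19 tags. Another at 20751 bp held 13 tags in WT, 19 in FLI1-KO and 25 in FLI1-KO-IFN-γ and was not listed in WT-IFN-γ. Upstream, the region 15498 bp before the TSS, with GAAACTGAA in its window, held 23 tags in WT, 26 with IFN-γ and 18 in FLI1-KO, and was not listed in FLI1-KO-IFN-γ. At that depth the WT-IFN-γ signal would have come to 20.2 tags, above the 11 needed. A region 19455 bp upstream was listed with 12 tags in FLI1-KO-IFN-γ alone. The remaining pair, at 45027 and −23225 bp, were listed in all 4 libraries with 14 to 62 tags and no call.

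**Figure D2:**
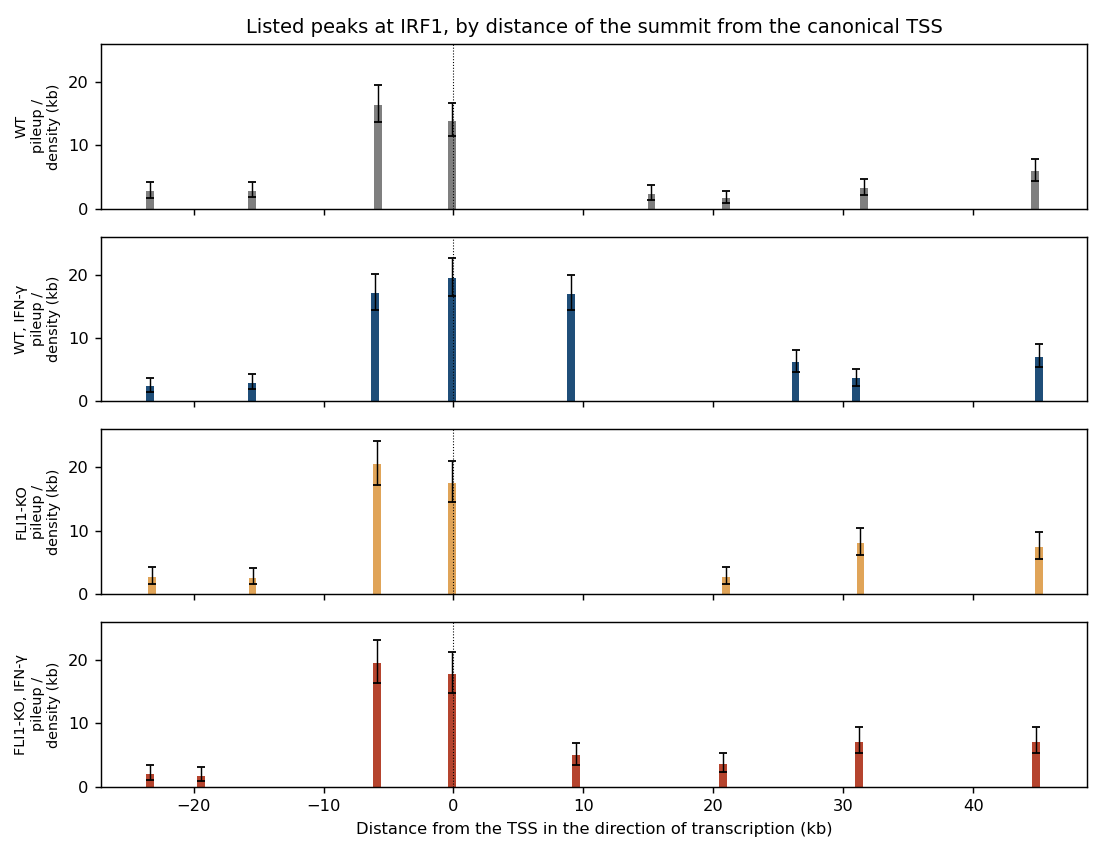
Peaks listed at IRF1 in each library (panels), with the distance of the summit from the canonical TSS on the x axis in kb, positive in the direction of transcription, and pileup over tag density on the y axis in kb; bars are values, whiskers the 95% counting interval, and the dotted line marks the TSS. The bar 9039 bp past the TSS is 150 tags in WT-IFN-γ, 34 tags in FLI1-KO-IFN-γ and missing in both controls.

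Levels at the IRF1 promoter were compared with those of other genes. Over 10731 protein-coding genes with at least 20 tags at the promoter in all 4 libraries, the 3 genes nearest to IRF1 in their log2 levels relative to WT were MAP1LC3B2, CALCOCO2 and IRAK1. Their Euclidean distances over the 3 other libraries were 0.027, 0.034 and 0.047 on the log2 scale. On that scale IRF1 stood at 0.48 in WT-IFN-γ, 0.34 in FLI1-KO and 0.35 in FLI1-KO-IFN-γ relative to WT. The distances are far below the counting error, as the IRF1 ratio of WT-IFN-γ to WT alone had an interval of 1.10 to 1.79. Which genes came out nearest is therefore not settled by these counts.

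IRF2, the competitor of IRF1 at shared sites, held the 1 member region called higher with IFN-γ in WT. Its body is chr4:184385702-184474558 on the minus strand, and all of its 4 regions were listed in all 4 libraries. The called region, chr4:184417166-184418392 in intron 5, held 10 tags in WT, 36 with IFN-γ, 14 in FLI1-KO and 16 in FLI1-KO-IFN-γ. The ratio of WT-IFN-γ to WT was 3.28 (1.59 to 7.40), and the IFN-γ ratio in FLI1-KO was 1.16 (0.528 to 2.56). The summit of this region lay 56660 bp past the TSS in WT and 56472 bp in WT-IFN-γ, so its WT ratio is between different positions. FLI1-KO-IFN-γ over WT-IFN-γ was 0.573 (0.297 to 1.06), which took in 1 and was not called. The WT ratio over the FLI1-KO ratio was 2.84 (1.04 to 7.73). Its summit window held the AP1 letters 3 times and neither the IRF nor the GAS letters. The IRF2 promoter held 60, 73, 65 and 64 tags in the order WT, WT-IFN-γ, FLI1-KO and FLI1-KO-IFN-γ, with IFN-γ ratios of 1.11 (0.776 to 1.59) in WT and 0.995 (0.693 to 1.43) in FLI1-KO, and intron 6 held 14 to 25 tags with no call. The promoter summit lay at 31 bp from the TSS in WT-IFN-γ and at −209 bp in WT, so the WT ratio is between different positions.

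IRF9, the ISGF3 subunit, had a single region, its promoter (gene body chr14:24161234-24168043, plus strand). It held 86 tags in WT, 103 with IFN-γ, 83 in FLI1-KO and 81 in FLI1-KO-IFN-γ. The levels overlapped throughout, with IFN-γ ratios of 1.09 (0.811 to 1.47) and 0.986 (0.717 to 1.36) in WT and FLI1-KO. The summit lay at −9 bp from the TSS in WT-IFN-γ and at −134 bp in WT, so the WT ratio is between different positions.

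Among the IRFs activated by sensor kinases, IRF3 (chr19:49659569-49665875, minus strand) also had a single region, which spanned its TSS and that of the neighbouring gene BCL2L12. Its highest summit held 105 tags in WT, 134 with IFN-γ, 95 in FLI1-KO and 83 in FLI1-KO-IFN-γ. The highest summit lay 80 bp upstream of the TSS in WT and 27 bp upstream in FLI1-KO, and 1146 and 1147 bp past it, in coding exon 2, in WT-IFN-γ and FLI1-KO-IFN-γ. FLI1-KO listed both positions as separate peaks, with 95 tags at the TSS and 89 in exon 2, and the merged peaks of the other libraries give 1 summit each. IFN-γ ratios of the highest summits were 1.16 (0.893 to 1.51) in WT and 0.883 (0.650 to 1.20) in FLI1-KO, between different positions.

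IRF7, the inducible driver of type I interferon genes, lies at chr11:612553-615983 on the minus strand. Its promoter held 73 tags in WT, 96 with IFN-γ, 86 in FLI1-KO and 70 in FLI1-KO-IFN-γ, with ratios of 1.20 (0.874 to 1.65) in WT and 0.823 (0.591 to 1.14) in FLI1-KO. The promoter summit lay at 215 bp from the TSS in WT-IFN-γ and at −26 bp in WT, so the WT ratio is between different positions. A region at the 3′ end held 31 to 52 tags with no call. IRF5 (chr7:128937457-128950038, plus strand), best known in myeloid cells, had the weakest promoter peak, at percentiles 2.93 to 5.18 of all promoter peaks of a library. It held 25 tags in WT, 18 with IFN-γ, 17 in FLI1-KO and 16 in FLI1-KO-IFN-γ, and the ratio with IFN-γ in WT was 0.655 (0.337 to 1.25). That ratio too is between different positions, −102 bp from the TSS in WT-IFN-γ and 62 bp in WT. In coding exon 3 a peak of 15 tags was listed in FLI1-KO alone, and a region over exons 6 to 8 held 14 to 23 tags in all 4 libraries.

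IRF4 and IRF8, the lymphoid and myeloid members, had only weak regions away from the promoter. At IRF4 (chr6:391739-411443, plus strand) the untranslated part of exon 9 held 17 tags in WT, 20 with IFN-γ, 26 in FLI1-KO and 14 in FLI1-KO-IFN-γ. Its other 3 regions were listed in 1 library each, with 11 and 10 tags in WT-IFN-γ and 13 in FLI1-KO-IFN-γ. The first pair would have fallen under the listing limit at the depth of FLI1-KO-IFN-γ, so their absence there cannot be read. At IRF8 (chr16:85899116-85922606, plus strand) the region printed above, 10126 bp before the TSS, held 19 tags (11.4 to 29.7) in WT-IFN-γ alone. At the depths of WT and FLI1-KO-IFN-γ this signal would have come to 17.3 and 14.8 tags, above the 11 and 10 needed. The summit of this region lies just outside the 10 kb upstream of IRF8, which only the edge of the peak overlaps. With summits in the window, the member regions gained with IFN-γ in WT went from 5 to 4. The IRF8 region 7705 bp upstream held 27 tags in WT, 21 with IFN-γ, 24 in FLI1-KO and 24 in FLI1-KO-IFN-γ, and intron 6 held 21, 27, 19 and 12 tags in the same order, with no call at either.

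**Figure D3:**
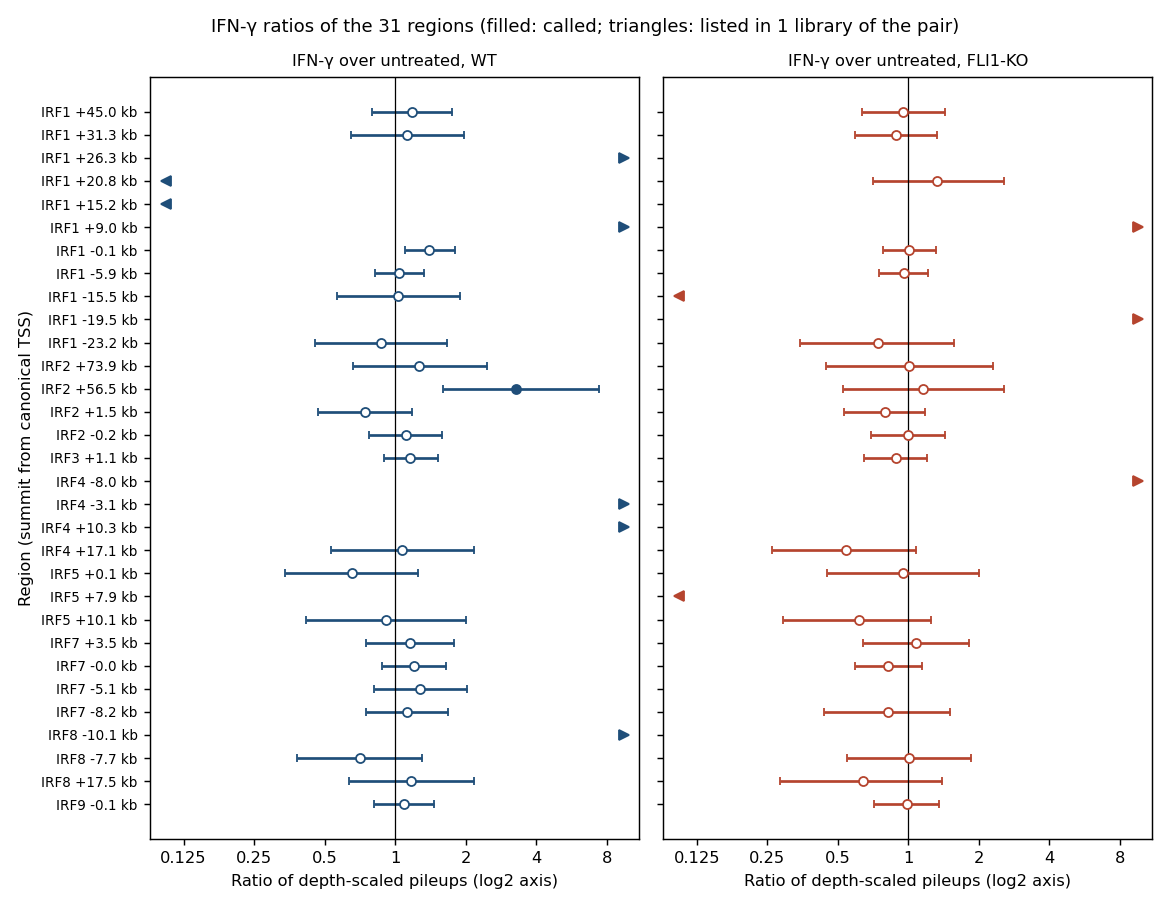
IFN-γ over control ratios of depth-scaled summit pileups (x axis, log2 scale) for the 31 regions (y axis, named by gene and summit distance from the TSS) in WT (left) and FLI1-KO (right); bars are 95% counting intervals, filled points are called, and triangles mark regions listed only with IFN-γ (right edge) or only without (left edge). The 1 filled point is intron 5 of IRF2, at 3.28 in WT.

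Set side by side, the IFN-γ ratios of the 2 genotypes covered 19 regions listed in all 4 libraries, 61.3% of the members against 43.9% of all regions. At 10 of the 19 the ratio was above 1 in WT and below 1 in FLI1-KO, beside 26.7% of all regions, and at 1 the reverse held, beside 18.5%. The interval of the ratio between them lay above 1 at 1 region (intron 5 of IRF2), beside 4.76% of all regions, and below 1 at 0, beside 1.3%. The median of this ratio was 1.25 over the 19 and 1.06 over all 40876 such regions. All 19 share the same 4 libraries, so a shift of 1 library moves them together. The median IFN-γ ratio over all regions was 0.953 in WT and 0.910 in FLI1-KO, so the side of 1 depends on the scaling.

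Without IFN-γ, FLI1-KO and WT differed in few listings at the IRF genes. Of the 22 member regions in FLI1-KO, 1 was not listed in WT, against 25.2% of all regions, and of the 23 in WT, 2 were not listed in FLI1-KO, against 21.3%. Of 21 in both, 2 were called higher in FLI1-KO (7.77% over all regions) and 0 lower (4.21%). With IFN-γ, 3 of 23 were in FLI1-KO-IFN-γ and not in WT-IFN-γ (19.7% over all regions), and 6 of 26 the other way (28.9%). Of 20 in both, 2 were called higher in FLI1-KO-IFN-γ, beside 5.15% of all regions, and 2 lower, beside 6.61%. The listing counts lay below the background in all 4 directions. Each library also enters an IFN-γ comparison above, so these values are no separate set. The median ratio of the members was 1.25 untreated, beside 1.03 over all regions, and 0.927 with IFN-γ, beside 0.985.

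The 2 regions called higher in FLI1-KO untreated were called higher with IFN-γ as well. The IRF1 region chr5:132458611-132460429, which overlaps no annotated exon and lies 31317 bp past the TSS, held 26 tags in WT, 32 with IFN-γ, 56 in FLI1-KO and 49 in FLI1-KO-IFN-γ. Both FLI1-KO libraries stood above both WT libraries, with ratios of 2.50 (1.54 to 4.15) untreated and 1.97 (1.24 to 3.18) with IFN-γ. The highest summit lay 31601 bp past the TSS in WT and 30981 bp in WT-IFN-γ. In FLI1-KO and FLI1-KO-IFN-γ it lay at 31317 and 31179 bp, so both ratios are between different positions. Within 5 Mb of IRF1, the median ratio of the other regions was itself 1.31 untreated and 1.21 with IFN-γ. Divided by those medians the ratios were 1.91 (1.18 to 3.17) and 1.63 (1.02 to 2.62). Intron 1 of IRF2, chr4:184472606-184473422, held 44 tags in WT, 36 with IFN-γ, 61 in FLI1-KO and 48 in FLI1-KO-IFN-γ, with ratios of 1.61 (1.07 to 2.43) and 1.72 (1.09 to 2.72). These too are between different positions. The summits lay at 1392 and 1394 bp in WT and WT-IFN-γ, and at 1499 and 1501 bp in FLI1-KO and FLI1-KO-IFN-γ. Around IRF2 the 5 Mb medians were 1.17 and 1.12, and the divided ratios, 1.37 (0.915 to 2.07) and 1.54 (0.977 to 2.44), had intervals that took in 1. The part of the surroundings in these ratios was not tested further.

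Both lower calls were found with IFN-γ. One was the 3′ region of IRF1 described above. The other lay upstream of IRF7, at chr11:623568-624470, where the nearest TSS was that of the neighbouring gene CDHR5, 801 bp away. It held 48 tags in WT, 59 with IFN-γ, 26 in FLI1-KO and 21 in FLI1-KO-IFN-γ. Both FLI1-KO libraries were below both WT libraries, with ratios of 0.629 (0.374 to 1.03) untreated and 0.459 (0.265 to 0.766) with IFN-γ. Summits lay 8142 and 8173 bp upstream of the IRF7 TSS in WT and WT-IFN-γ. In FLI1-KO and FLI1-KO-IFN-γ they lay 7986 and 8315 bp upstream, so these ratios are between different positions. A second region in CDHR5, 5079 bp upstream of the IRF7 TSS, held 35 tags in WT and 49 with IFN-γ, and was listed in neither FLI1-KO library, where 30.2 and 38.0 tags of the same level would have exceeded the 21 and 24 needed. The 5 Mb medians around IRF7 were 1.07 and 0.989.

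The promoters themselves were not called between genotypes. The FLI1-KO over WT ratios at IRF1, IRF2, IRF3, IRF7 and IRF9 were 1.26, 1.26, 1.05, 1.37 and 1.12 untreated, and each interval took in 1. With IFN-γ the ratios at IRF1, IRF2, IRF5, IRF7 and IRF9 lay between 0.914 and 1.15, again with 1 inside each interval. At IRF2, IRF5, IRF7 and IRF9 these ratios set summits at different positions of the promoter against each other. The IRF5 ratio untreated was 0.789 (0.400 to 1.52).

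**Figure D4:**
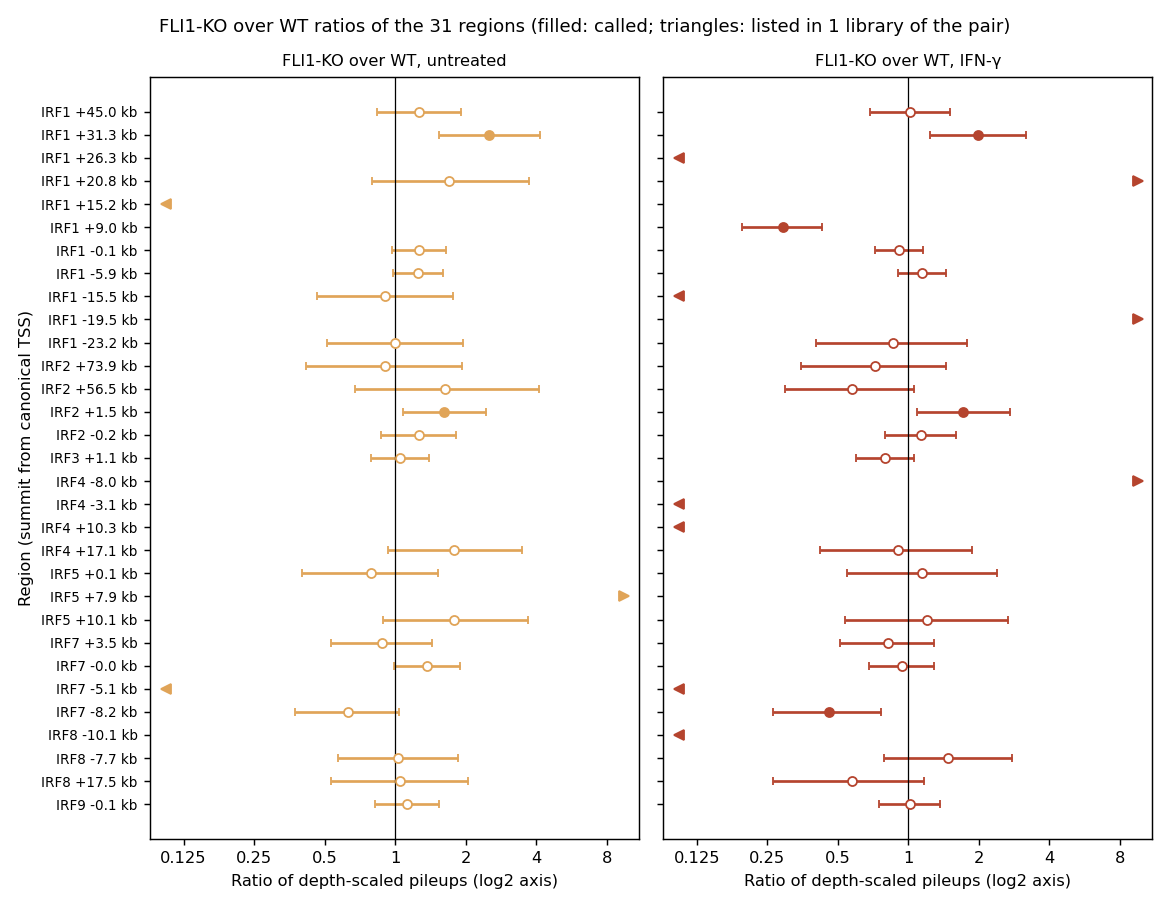
FLI1-KO over WT ratios of depth-scaled summit pileups (x axis, log2 scale) for the 31 regions (y axis, named by gene and summit distance from the TSS), untreated (left) and with IFN-γ (right); bars are 95% counting intervals, filled points are called, and triangles mark regions listed only in FLI1-KO (right edge) or only in WT (left edge). The filled points right of 1 are the IRF1 region 31317 bp past the TSS and intron 1 of IRF2 in both panels, and those left of 1 are the 3′ region of IRF1 and the region 8173 bp upstream of IRF7.

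Genes around the IRFs in the pathway were counted in the same way, as genes with at least 1 region listed in WT-IFN-γ and not in WT. Beside 3 of the 8 IRF genes (IRF1, IRF4 and IRF8) and 31.77% of all protein-coding genes, these were 3 of 8 kinases and adaptors that activate IRF3, IRF5 and IRF7, 2 of 8 partners and cofactors, and 6 of 10 known target genes. IRF8 is counted only through the region whose summit lies outside its window. In FLI1-KO the counts of genes with a region in FLI1-KO-IFN-γ and not in FLI1-KO were 2 of 8 IRF genes, 0 of 8, 2 of 8 and 2 of 10 in the same order, beside 22.55% of all genes. No list was compared with another by a test. By −log10 q the strongest of the WT regions lay at CIITA, the IRF1 target that controls MHC class II genes, where 1 region held 136 tags in WT-IFN-γ, 30 in FLI1-KO and 38 in FLI1-KO-IFN-γ. Regions at STING1 (45 tags), the sensor adaptor upstream of IRF3, at CASP1 (31 tags), JAK1 (52 tags), ISG15 (48 tags) and GBP2 (46 tags) followed. The STING1 region was also listed in FLI1-KO (13 tags) and FLI1-KO-IFN-γ (22 tags), and the ISG15 region in FLI1-KO (30 tags) but not FLI1-KO-IFN-γ. Those at CASP1, JAK1 and GBP2 were in neither FLI1-KO list.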

How the data were processed

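ATAC-seq of HK1 cells gave 1 peak list per group, 4 in all. The authors used Trimmomatic 0.3 for trimming and Bowtie2 2.3.4.1 for alignment to GRCh38, removed duplicates with Picard and called peaks with MACS2 2.1.2 at a q cutoff of 0.05, as the submitters' processing notes and the study's methods say. The methods also name a filter on reproducible peaks (IDR). Whether a deposited list pools replicates, or precedes that filter, is not given in the sources used here. Nor is a shift of tag ends for the transposase, on which the exact base of a summit depends. Each deposited list holds a score, a fold (ratio of pileup to background) and −log10 p and q values, as the authors' peak caller wrote them. The score was not used further.

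From fold = (pileup + 1) / (background + 1) and the Poisson p, whole-number summit pileups were recovered for 100% of peaks, within 0.01 of the deposited −log10 p. Tag density is the lowest background over the length of the shortest peak, taken as the tag extension. It serves to compare libraries and is not a read total. Depth ranged from 6.86 to 8.84 tags per kb, and the lowest listed pileup was 7 or 8 tags. The protocol names no molecular identifiers, so Poisson intervals of pileups and exact conditional binomial intervals of ratios cover counting error only. The interval of a ratio between 2 ratios used the normal approximation on the log scale. A region absent from a list was set against the smallest pileup that library would have listed at depth-scaled background.

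Genes, TSSs and exons came from GENCODE 44, and no peak ended beyond a GRCh38 chromosome. RefSeq promoter windows (GRCh38.p14) matched IRF1, IRF4, IRF5, IRF8 and IRF9. The members and lists were chosen with earlier results of these data known. All 8 genes are named; regions are described where listed in 1 library of a pair, called, or among the 2 strongest of a gene, and others by range. Pathway genes named are at most 6, with a region gained or lost in WT at −log10 q of at least 10. The counts of the receptor signalling list are not reported here. Alternatives were stricter −log10 q, another window, summits in place of overlap, nearest TSS, equal depth, another overlap, median scaling and background subtraction; for the called ratios, the 5 Mb median, median scaling and background subtraction were chosen after seeing the data. The steps were tested on simulated data. Python 3.11.15 with numpy 2.4.6, pandas 2.3.3 and scipy 1.17.1, matplotlib 3.10.9 and samtools 1.23.1 were used.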

Additional observations from a re-analysis of the deposited data

Results flagged for a closer look

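At 11 of the 19 regions listed in all 4 libraries, the depth-scaled ratio of IFN-γ to control lay on opposite sides of 1 in WT and FLI1-KO. With 1 library per group the difference was not tested, and only intron 5 of IRF2, which is not among the 11, had a counting interval of the difference that left out 1. The side of 1 depends on the scaling, as the median ratio over all regions was 0.953 in WT and 0.910 in FLI1-KO. Scaled by these medians, the FLI1-KO ratios of the IRF2 and IRF9 promoters were 1.09 and 1.08, above 1 as in WT. That of the IRF7 promoter was 0.904, still below 1. The count of 11 was not retaken with this scaling. The values that follow are the WT ratio divided by the FLI1-KO ratio. At IRF1 it was 1.235 for the region 45 kb past the TSS (1.176 in WT and 0.952 in FLI1-KO), 1.267 at 31 kb past it and 1.092 at 5.9 kb upstream. At the promoters it was 1.113 for IRF2, 1.455 for IRF7 and 1.105 for IRF9. For the IRF3 region it was 1.316, which sets IFN-γ summits in exon 2 against control summits at the TSS. It was 1.371 for the region 8.2 kb upstream of IRF7, 1.968 for exon 9 of IRF4 and 1.833 for intron 6 of IRF8. The region 7.7 kb upstream of IRF8 alone went the other way, at 0.7005. The promoter values of IRF2, IRF7 and IRF9 also set different positions against each other. From the TSS their summits lay at 31, 215 and −9 bp in WT-IFN-γ, and at −209, −26 and −134 bp in WT.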

How the results depend on the processing

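No group had a replicate, so no result could be recomputed without one. No paired analysis was possible because each group held 1 library and the labels gave no replicate numbers. The 4 counts of peaks kept within 1.5 times of their main values in 19 of 20 alternatives; the exception was FLI1-KO-IFN-γ, with 15 peaks in place of 23 at −log10 q of at least 5. The 8 counts of regions listed in 1 library of a pair did so in 37 of 48, and their small size makes 1 or 2 regions a large share. With −log10 q of at least 5, the regions gained with IFN-γ in FLI1-KO went from 3 to 1, those in FLI1-KO and not WT from 1 to 2, those in WT and not FLI1-KO from 2 to 4, and those in FLI1-KO-IFN-γ and not WT-IFN-γ from 3 to 1. With 3 kb upstream, the regions gained with IFN-γ in WT went from 5 to 3, those in WT and not FLI1-KO from 2 to 1 and those in WT-IFN-γ and not FLI1-KO-IFN-γ from 6 to 3. With peaks nearest to the TSS of an IRF gene only, those in FLI1-KO and not WT went from 1 to 2 and those in WT and not FLI1-KO from 2 to 1. With overlap of at least 50% of the shorter peak, gained and lost peaks in FLI1-KO went from 3 to 5 and from 2 to 4. Equal depth and summits in the window left all 12 counts within 1.5 times. All 42 promoter ratios and all 21 called ratios recomputed stayed inside the counting interval of the main value, and no called ratio turned its direction. Median scaling could not have taken a ratio out of its interval, as the medians were 0.910 to 1.03. The check also did not ask whether a call was kept. With the 5 Mb median, the intron 1 ratios of IRF2 were 1.37 untreated and 1.54 with IFN-γ. Both intervals then took in 1, so neither would be called. The IRF1 promoter ratio in WT was 1.33 with background subtraction and 1.47 with median scaling. Depth limits the weakest regions: 10 tags carry a counting interval of 4.79 to 18.4, and 19 tags one of 11.4 to 29.7.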
